A study of Mus musculus with 43 samples.

Results

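Rods turn light into an electrical signal through a short protein cascade, and the messenger RNAs of 9 of its genes were followed in mouse retinas after laser injury with and without short-chain fatty acids. The 9 genes are Gnat1, Gnb1, Gngt1, Pde6a, Pde6b, Pde6g, Cnga1, Cngb1 and Sag. They were taken by symbol from the 54532 genes of the deposited read-count table, and each matched 1 gene. The rule uses symbols and not measured values, but the genes were picked with earlier results of these data known.

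In the dark, cyclic GMP holds the rod's cation channel open. A photon absorbed by the visual pigment activates the G protein transducin, whose alpha subunit takes the inhibitory gamma subunits off the phosphodiesterase PDE6. The freed enzyme breaks down cyclic GMP, and the channel closes. Gnat1, Gnb1 and Gngt1 encode the alpha, beta and gamma subunits of rod transducin. Pde6a and Pde6b encode the catalytic pair of rod PDE6, and Pde6g its inhibitory subunit. Cnga1 and Cngb1 encode the alpha and beta subunits of the rod cyclic nucleotide-gated channel. Sag encodes rod arrestin, which is known for ending the response by capping the phosphorylated pigment. Gnb1 is expressed in most cell types, whereas the other 8 genes are used chiefly by rods, and some of them also by cones.

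RNA was sequenced from whole retinas of C57BL/6J mice, male and female, that received laser burns at 9 weeks of age, a procedure that breaks the layer beneath the retina and makes new vessels grow from the choroid. Control mice received the laser without SCFA, and SCFA mice drank water with the sodium salts of acetate (67.5 mM), propionate (40 mM) and butyrate (25 mM) from before the laser until the retinas were taken at 3, 7 or 14 days post laser (dpl). The labels give amounts by weight that do not match the propionate and butyrate molarities, so these 2 doses are uncertain. Each of the 43 libraries pooled 2 retinas of 2 mice, and the 12 groups of sex, drink and day held 3 to 5 libraries each. The groups were read from the sample titles, since the labels' treatment field gave control for every library. All mice were lasered, so no group shows the uninjured retina. The drink was given to the whole animal, and the pooled whole retinas hold tissue at and away from the burns. The p-values measure the spread between these pools.

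The libraries held 14826957 to 21507527 counts. The female SCFA 3 dpl replicate 2 library was left out of every comparison because its summed lens markers stood at 242233 CPM (counts scaled to libraries of equal size, here over all 43 libraries together), against at most 666 CPM elsewhere, so 42 libraries remained. The columns of the table stand in a first run of 31 and a second run of 12, and 53.3% of the genes tested differed between the runs at edgeR's adjusted p under 0.1. No label says what the runs are, and the comparisons were fitted with the run as a term. One of the 22 libraries labelled female, female control 7 dpl replicate 2, held 784 Y-linked counts, where the lowest male library held 2229. Counts of mitochondrial messenger RNAs took 2.5% to 9.05% of a control library and 3.73% to 14.8% of an SCFA library. In whole retina, fewer rods and less RNA per rod cannot be told apart.

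Together the 9 messenger RNAs took 2.95% to 5.16% of all counts, with a median of 4.63% over 42 libraries. All 9 passed the filter on low counts, and the lowest count of any of them in any library was 9097, so counting error was small beside the spread between libraries. Levels of different genes were compared as CPM per kilobase of the longest coding transcript. On this scale Gnat1 was highest with a median of 8059, followed by Sag at 4942, Pde6g at 3717, Gngt1 at 2136, Gnb1 at 1649, Pde6b at 956, Pde6a at 538, Cnga1 at 370 and Cngb1 at 204. The alpha subunit of transducin and arrestin thus led the list, and the 2 channel subunits ended it. The places below depend on the length chosen. The longest transcript of any type has 4727 bases for Sag, 2250 for Pde6g and 2976 for Gngt1, against 1719, 900 and 1183 bases used here. The ranges of every 2 neighbours overlapped across libraries. Within a library, Gnat1 stood above Sag, Sag above Pde6g, Gnb1 above Pde6b, Pde6b above Pde6a and Cnga1 above Cngb1 in 42 of 42 libraries. Pde6a stood above Cnga1 in 39, Pde6g above Gngt1 in 38 and Gngt1 above Gnb1 in 31, so the place of the transducin gamma subunit was the least fixed.

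Gngt1 varied most. Its level ran from 1039 to 5437 CPM over 42 libraries, with a median of 2527 CPM and a 5.23-fold range. The other 8 genes had ranges of 1.80-fold to 2.26-fold. Within a group the coefficient of variation of Gngt1 had a median of 43.4% over the 12 groups, where the medians of the other members lay between 4.11% and 12.4%. These values mix the 2 runs. Within the first run Gngt1 had a 2.77-fold range, against 1.71-fold to 2.25-fold for the other 8 genes, and within the second run a 2.15-fold range, against at most 1.80-fold. Among libraries of the same group and run its coefficient of variation had a median of 14.0%, against 3.73% to 10.2% for the others. The male SCFA 7 dpl replicate 3 library was the lowest of all for 7 of the 9 genes, among them Gnat1 at 11980 CPM against a median of 18760 CPM. It also had the highest mitochondrial share, 14.8%. Male SCFA 7 dpl replicate 2 stood at the other end, with Gnat1 at 24252 CPM, so the male SCFA group at 7 dpl held the extremes of the series for this gene.

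**Figure D1:**
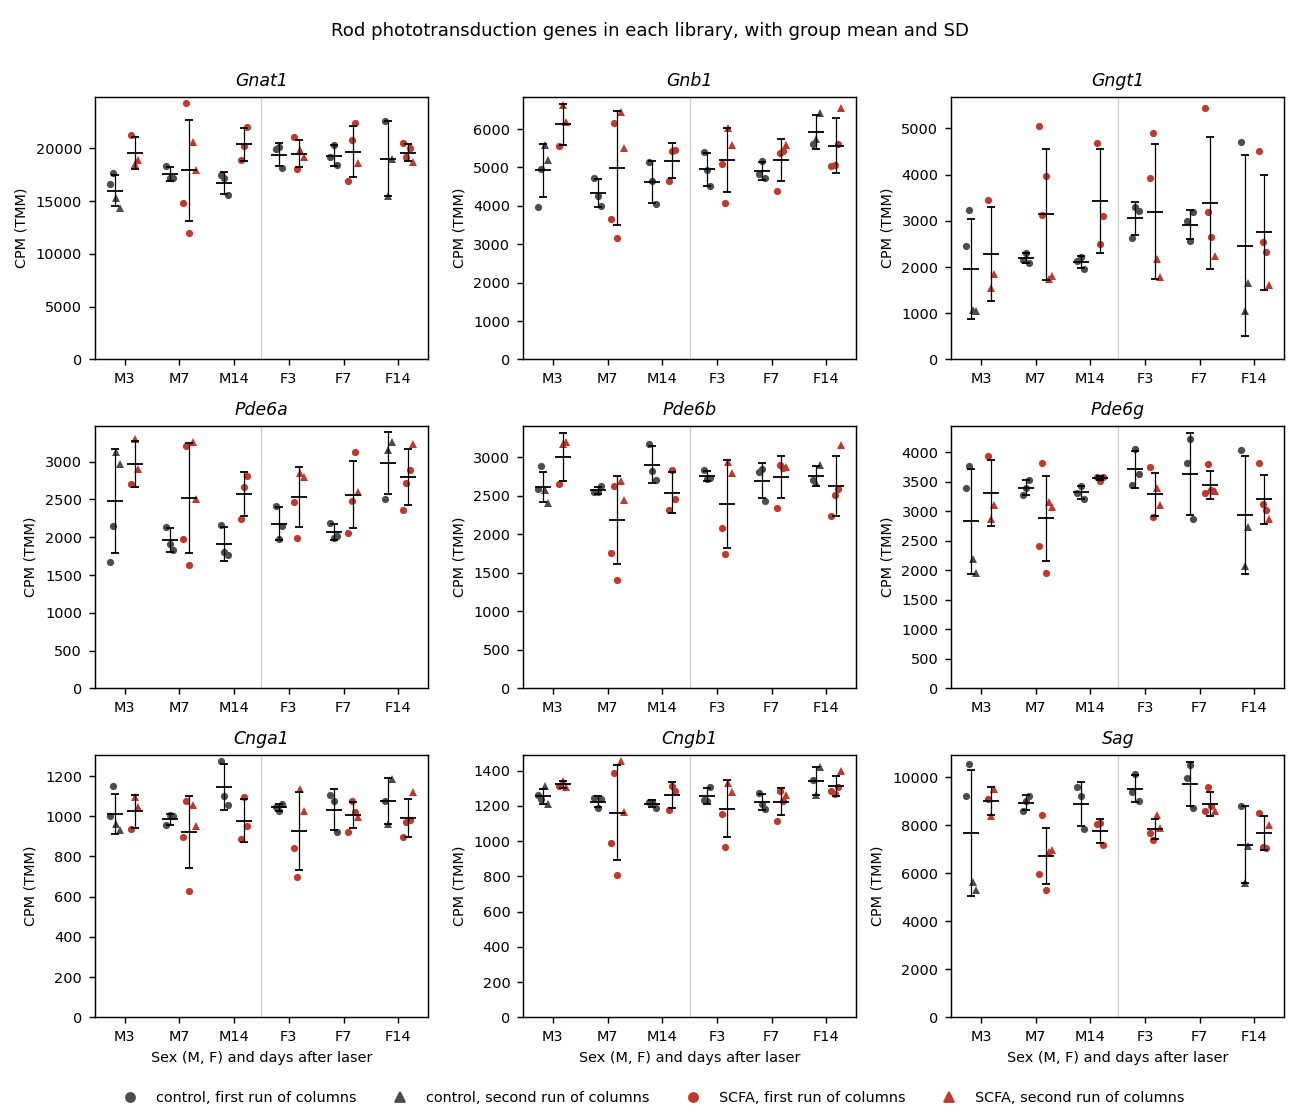
Level of each of the 9 genes in CPM (y axis) in every library of the 12 groups (x axis), with colour for the drink, circles for the first and triangles for the second run of columns, and bars for the mean ± SD of a group. Gngt1 spreads from 1039 to 5437 CPM, while each of the other 8 genes stays within a 2.26-fold range.

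Apart from Gngt1, most pairs of the genes varied together from library to library. Each gene's log2 CPM was taken as its deviation from the mean of its group and run, and 36 pairs of genes were compared over the 42 libraries by permutation, with Benjamini-Hochberg adjustment over the pairs and an adjusted p of 0.05 as the threshold. Among the 28 pairs without Gngt1, Pearson's r ran from 0.06 to 0.94 with a median of 0.75, and 26 passed. Pde6b and Cnga1 had the highest r of all pairs (r = 0.94, Spearman's rho = 0.90, adjusted permutation p = 1.8e-05 from the smallest p that the resamples can give). Without the 2 libraries farthest from the median it was 0.91, and in the first run alone 0.94. Over the 28 pairs r ran from −0.26 to 0.91 when the 2 farthest libraries were left out in each. Gnat1 with Gnb1 gave r = 0.91, Gnat1 with Cngb1 r = 0.90, and Pde6g with Sag r = 0.88. The 2 pairs that did not pass were Pde6a with Sag (r = 0.06) and Pde6a with Pde6g (r = 0.20), and without the 2 farthest libraries these gave −0.26 and −0.13. In the first run alone the r of all 28 pairs lay between 0.51 and 0.94.

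Gngt1 did not share this variation. Its r with the other 8 genes ran from −0.54 to 0.28. The pair with Pde6a passed (r = −0.54, adjusted permutation p = 0.000403), as did the pair with Gnb1 (r = −0.32, adjusted permutation p = 0.046), both with the sign opposite to that of the other pairs. The permutations treat the deviations of 42 libraries as free, but the fit of group and run means left 29 residual degrees of freedom. The permutation p-values of all pairs are therefore too small, and the pair with Gnb1, close to the threshold, is not secure. In the first run alone the 8 values were all below 0, from −0.58 to −0.02. Among all genes tested, those whose deviations were most like the mean of the 9 members were Ankrd33 (r = 0.94), Nrl (r = 0.93), Aipl1 (r = 0.93), Guca1b (r = 0.92) and Rab28 (r = 0.92) over 42 libraries. Those most like Gngt1, listed after the 9 genes had been seen to divide in this way, were Cox7b (r = 0.96), Mtln (r = 0.92), Uqcc2, Cebpzos and Ccdc107 (r = 0.90 each). These r values are descriptions, since the genes were picked for them.

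**Figure D2:**
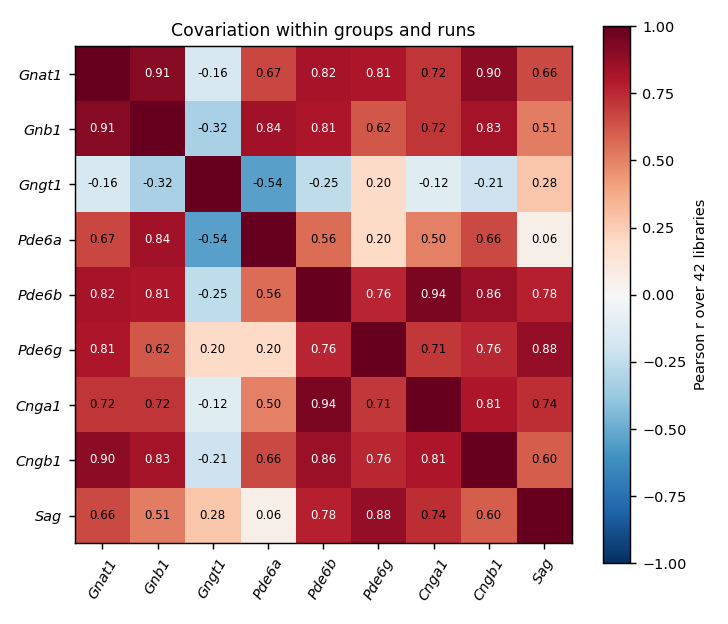
Pearson's r between the 9 genes over 42 libraries, from deviations of log2 CPM from group and run means, with the genes on both axes and colour for r. The 8 genes other than Gngt1 form a block with r up to 0.94, and the row of Gngt1 runs from −0.54 to 0.28.

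The sequence before the start site was examined for 2 short motifs because most of the genes moved together and 1 did not. CRX and NRL are the transcription factors best known for driving rod genes. RefSeq windows (GRCm38.p6) from 250 bases before to 50 bases after the start were searched for 6 of the 9 genes. Gnat1, Pde6a and Pde6g were not searched, so the motifs of these genes are not known here. The letters TAATCC, a CRX core, or its complement GGATTA were in 7.06% of all 32851 windows, and the letters TGCTGA, a core of the NRL site, or TCAGCA were in 19.5%, with both strands searched. The 2 motifs do not overlap in the windows shown. The CRX core was found in the windows of Gngt1, Cnga1, Cngb1 and Sag, and the NRL core in those of Pde6b and Sag. Gnb1, the subunit that most cells use, had neither. The 250 bases before the start are given for the 4 genes with matches there, 5′ to 3′ on the gene's own strand, with the matches in capitals. For Gngt1 only the match with its flanks is given, because GENCODE M21 places it inside the gene's first exon (chr6:3993792-3994086).

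Pde6b, chr5:108388123-108388372 (+): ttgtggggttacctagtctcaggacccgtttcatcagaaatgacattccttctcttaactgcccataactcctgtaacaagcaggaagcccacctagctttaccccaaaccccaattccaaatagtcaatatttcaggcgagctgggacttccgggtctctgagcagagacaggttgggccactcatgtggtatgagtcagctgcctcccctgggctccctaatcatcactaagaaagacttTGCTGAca
Cnga1, chr5:72642753-72643002 (-): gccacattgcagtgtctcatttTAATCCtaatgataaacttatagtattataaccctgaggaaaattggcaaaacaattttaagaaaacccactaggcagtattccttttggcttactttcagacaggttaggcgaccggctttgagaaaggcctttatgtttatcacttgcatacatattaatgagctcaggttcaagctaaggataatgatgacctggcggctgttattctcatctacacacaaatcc
Cngb1, chr8:95306586-95306835 (-): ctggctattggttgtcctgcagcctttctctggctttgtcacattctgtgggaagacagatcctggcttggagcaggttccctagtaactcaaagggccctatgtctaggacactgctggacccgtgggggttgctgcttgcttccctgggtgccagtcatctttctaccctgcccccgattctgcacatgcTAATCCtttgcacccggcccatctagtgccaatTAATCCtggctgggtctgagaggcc
Sag, chr1:87803430-87803679 (+): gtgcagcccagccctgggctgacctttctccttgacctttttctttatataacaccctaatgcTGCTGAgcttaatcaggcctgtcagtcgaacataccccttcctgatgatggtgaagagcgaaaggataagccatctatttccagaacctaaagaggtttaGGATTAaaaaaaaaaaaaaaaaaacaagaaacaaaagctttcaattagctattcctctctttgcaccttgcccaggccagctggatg
Gngt1, chr6:3993952-3993981 (+): tcatattaggggGGATTAtgaagaagcttt

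In Cngb1 the 2 CRX cores began 58 and 25 bases before the start. In Sag the CRX core began 87 bases and the NRL core 187 bases before it. The NRL core of Pde6b lay 8 bases before the start, and the CRX core of Cnga1 lay 228 bases before it, in a stretch that GENCODE also counts as part of a non-coding transcript of Cnga1 with a retained intron. The CRX core of Gngt1 lay 44 bases before the start. The gene that stood apart in its variation therefore held the same letters as 3 of the genes that moved together. A match is only a description of the letters and not evidence of a bound site.

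Whether SCFA changed the genes was first asked over all days and both sexes. Gngt1 and Pde6a were higher with SCFA and Cnga1 was lower, so 3 of the 9 genes were called at edgeR's adjusted p under 0.1, against 36.7% of all 18173 genes tested. The share among the members was close to that background. None of the 9 changed by more than 1 on the log2 scale, as 0.677% of all genes did while being called. The median log2 fold change of the 9 genes was 0.04, and that of all genes was −0.01. Of the 9 values 5 were above 0 and 4 below. DESeq2 called 4 of the 9, adding Gnat1, beside 6784 of all 18173 genes.

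**Figure D3:**
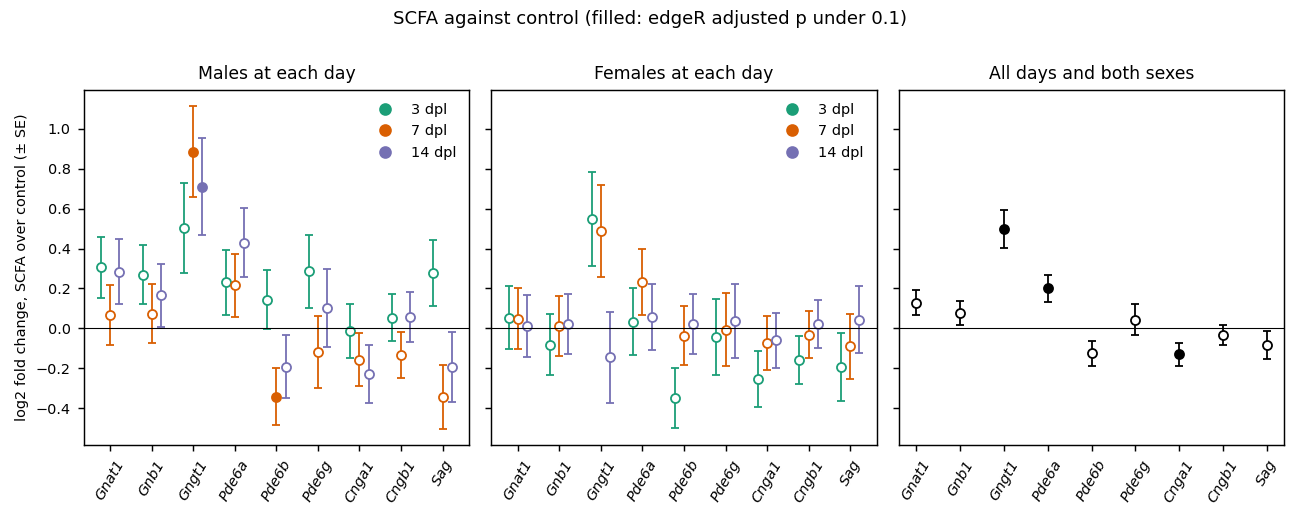
Log2 fold change of SCFA against control (y axis, with SE) for each of the 9 genes (x axis), in males and females at each day and over all days and both sexes, from edgeR's fit. Filled points have an adjusted p under 0.1. Gngt1 lies highest of the 9 over all groups, at 0.50, and in males at 7 dpl, at 0.89, and lowest in females at 14 dpl, at −0.14.

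Of the transducin subunits only Gngt1 was called over all groups, and the difference between the subunits was not tested. Gngt1, at chr6:3993792-3997436 on the plus strand (ENSMUSG00000029663), spanned 1553 to 5437 CPM in the 23 SCFA libraries with a median of 2647 CPM. In the 19 control libraries it spanned 1039 to 4700 CPM with a median of 2313 CPM. The ranges overlapped widely, and the runs stood apart, the second having no library over 2235 CPM and the first none under 1962 CPM. With the run in the fit, Gngt1 was 0.50 ± 0.10 (SE) higher on the log2 scale with SCFA, a 1.41-fold difference (95% interval 0.30 to 0.69 on the log2 scale, edgeR's adjusted p = 0.000198). Without the run as a term the value was 0.31 with an adjusted p of 0.227, so with both runs in the fit the call needed that term. In the first run alone it was 0.37 with an adjusted p of 0.0304. With each of the 42 libraries left out in turn it stayed between 0.45 and 0.55 and was called each time. With a smooth trend in GC content taken out of every library it was 0.19 with an adjusted p of 0.133, so the call was lost. Gnat1, not among the genes that edgeR called above, passed there at 0.20.

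Gnat1, at chr9:107674474-107679712 on the minus strand (ENSMUSG00000034837), spanned 11980 to 24252 CPM with SCFA (median 19170 CPM) and 14322 to 22536 CPM in controls (median 17650 CPM). The control range lay within the SCFA range. Its log2 difference of 0.13 ± 0.06 (SE) missed the threshold (95% interval −0.00 to 0.26, edgeR's adjusted p = 0.13). Gnb1 gave 0.08 ± 0.06 (SE) with a 95% interval of −0.05 to 0.20 and an adjusted p of 0.371. For Gnat1 the call depended on single libraries, since leaving out 1 library brought it past the threshold in 12 of 42 cases, with 0.18 and an adjusted p of 0.0106 without male SCFA 7 dpl replicate 3. Gnb1 passed without the same library, with 0.12 and an adjusted p of 0.0892.

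The 2 catalytic subunits of PDE6 had differences of opposite sign. Pde6a spanned 1634 to 3305 CPM with SCFA (median 2702 CPM) and 1678 to 3264 CPM in controls (median 2145 CPM). The ranges nearly coincided, and the medians did not. The log2 difference was 0.20 ± 0.07 (SE), with a 95% interval of 0.06 to 0.34 and edgeR's adjusted p = 0.0242, and it was called with each library left out in turn (0.19 to 0.24). Pde6b, at chr5:108388391-108432397 on the plus strand (ENSMUSG00000029491), spanned 1410 to 3193 CPM with SCFA (median 2626 CPM) and 2403 to 3173 CPM in controls (median 2710 CPM). Low values were thus seen with SCFA, and the difference of −0.13 ± 0.06 (SE) missed the threshold (95% interval −0.25 to −0.00, edgeR's adjusted p = 0.123). Leaving out male SCFA 7 dpl replicate 2, female SCFA 3 dpl replicate 4 or male control 3 dpl replicate 4 brought Pde6b past it, at −0.13 to −0.14. The inhibitory subunit Pde6g gave 0.04 ± 0.08 (SE), with a 95% interval of −0.11 to 0.20 and an adjusted p of 0.722.

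Of the channel subunits and arrestin, Cnga1 alone was called, as lower with SCFA. Cnga1, at chr5:72603696-72644275 on the minus strand (ENSMUSG00000067220), spanned 630 to 1136 CPM with SCFA (median 981 CPM) and 919 to 1273 CPM in controls (median 1045 CPM). The SCFA range reached lower and the control range higher. Its log2 difference was −0.13 ± 0.06 (SE), with a 95% interval of −0.25 to −0.02 and edgeR's adjusted p = 0.0784. The call was lost in 21 of 42 cases with 1 library left out, at −0.09 with an adjusted p of 0.189 without male SCFA 7 dpl replicate 3. Cngb1 gave −0.03 ± 0.05 (SE), with a 95% interval of −0.13 to 0.07 and an adjusted p of 0.661. Sag gave −0.08 ± 0.07 (SE), with a 95% interval of −0.22 to 0.06 and an adjusted p of 0.384. In the first run alone Sag passed, at −0.23 with edgeR's adjusted p = 0.0202. There 5 of the 9 genes were called (Gngt1, Pde6a, Pde6b, Cnga1 and Sag), against 30.1% of all genes.

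At 7 dpl in males, 2 of the 9 genes were called, against 23.8% of all genes, a share like that background. The 4332 genes behind that share became 2439 to 2801 without SCFA replicate 3, control replicate 2 or control replicate 3, each alone. Gngt1 stood at 2163, 2313 and 2094 CPM in the controls, all of the first run. In the SCFA males it stood at 5048, 3134 and 3980 CPM in the first run and at 1742 and 1800 CPM in the second. The first-run SCFA libraries were all above the controls and the second-run ones all below. The log2 difference adjusted for run was 0.89 ± 0.23 (SE), with a 95% interval of 0.42 to 1.35 and edgeR's adjusted p = 0.00636. In the first run alone it was 0.87 with an adjusted p of 0.0203. Without the run as a term it was 0.52 with an adjusted p of 0.50. Pde6b stood at 2546, 2543 and 2623 CPM in the controls and at 1762, 2626, 1410, 2692 and 2445 CPM in the SCFA males. Replicates 1 and 3 lay far below the controls, replicate 5 just below them and the other two above them. The log2 difference of Pde6b was −0.34 ± 0.14 (SE), with edgeR's adjusted p = 0.093. The call was lost in 21 of 42 cases with 1 library left out, and without SCFA replicate 3 the value was −0.20 with an adjusted p of 0.364. Replicates 1 and 3 were the libraries with 13.8% and 14.8% of counts from mitochondrial messenger RNAs. Without both and female SCFA 3 dpl replicate 3, which had 11.5%, Pde6b gave −0.08 with an adjusted p of 0.80 and Gngt1 gave 0.73 with an adjusted p of 0.145.

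Sag, the arrestin gene, had groups that did not overlap at 7 dpl in males. It stood at 8603, 9030 and 9209 CPM in the controls and at 5996, 8453, 5312, 6897 and 6978 CPM with SCFA. The values of 6897 and 6978 CPM are of the second run, which held no control of that sex and day. Those of 5996 and 5312 CPM are of the libraries with 13.8% and 14.8% of counts from mitochondrial messenger RNAs. Every SCFA library lay below every control, as was so in either direction for 17.8% of all genes and for 1 of the 9 here. The log2 difference of −0.34 ± 0.16 (SE) still missed the threshold (edgeR's adjusted p = 0.135). Gnat1 spanned 17172 to 18354 CPM in the controls and 11980 to 24252 CPM with SCFA. The SCFA males of that day lay on both sides of the controls for Gnat1, and edgeR gave a log2 difference of 0.07 ± 0.15 (SE).

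At 14 dpl in males, 1 of the 9 genes was called, against 9.68% of all genes, again a share like the background. That background was itself unstable, since its 1760 genes became 0 without SCFA replicate 1 or SCFA replicate 3, 25 without control replicate 1 and 8 without control replicate 2. All 6 libraries were of the first run. Gngt1 stood at 2124, 2215 and 1962 CPM in the controls and at 4691, 2502 and 3112 CPM with SCFA, and the groups did not overlap. The log2 difference was 0.71 ± 0.24 (SE), with edgeR's adjusted p = 0.0836. The call was lost without SCFA replicate 1 (0.42, adjusted p = 0.49), SCFA replicate 3 (0.77, adjusted p = 0.171), control replicate 1 (0.73, adjusted p = 0.193), control replicate 2 (0.75, adjusted p = 0.204) or control replicate 3 (0.67, adjusted p = 0.164). With the GC trend removed it was 0.30 with an adjusted p of 0.47. Pde6a stood at 2166, 1801 and 1759 CPM in the controls and at 2242, 2662 and 2809 CPM with SCFA. These groups did not overlap either, and the log2 difference of 0.43 ± 0.17 (SE) missed edgeR's threshold (adjusted p = 0.133), while DESeq2 called it. Gnat1 stood at 17448, 17172 and 15534 CPM in the controls and at 18852, 20209 and 22029 CPM with SCFA. With Pde6g, 4 of the 9 genes had all SCFA libraries above all controls, where 33.5% of all genes did not overlap in 1 direction or the other. That share was near the background.

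At 3 dpl in males, edgeR called none of the 9 genes and 0.0275% of all genes, DESeq2 called none of the 9, and 1 of them, Gngt1, had an unadjusted p under 0.05, as 12% of all genes did. Gngt1 stood at 2461, 3240, 1067 and 1056 CPM in the controls and at 3446, 1553 and 1854 CPM with SCFA. The last 2 values of each group are those of the second run, and within each run every SCFA library was above every control. The log2 difference was 0.50 ± 0.23 (SE), with edgeR's adjusted p = 0.373. In the second run alone it was 0.68 ± 0.18 (SE), with an adjusted p of 0.0571. Sag stood at 9212 and 10580 CPM in the first-run controls and at 5641 and 5301 CPM in the second-run controls. The SCFA males had 9106 CPM in the first run and 8384 and 9525 CPM in the second, so Sag was lower than the controls in the first run and higher in the second. In the second run alone Sag gave 0.70 ± 0.14 (SE), with edgeR's adjusted p = 0.0341. With Pde6g (0.52, adjusted p = 0.0597), 3 of the 9 genes were called in that comparison of 2 SCFA with 2 control males, beside 9.23% of all genes. On the short-transcript measure described below these controls stood at −0.92 and −0.99, and these SCFA males at −0.53 and −0.28. The part of that measure in the 3 calls was not tested. Gnat1 stood at 16658, 17652, 15260 and 14322 CPM in the controls and at 21300, 18468 and 18847 CPM with SCFA. These groups did not overlap, as was so for 8.55% of all genes, and the fit gave 0.31 ± 0.15 (SE) with an adjusted p of 0.418.

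In females no member was called at any day. At 3 dpl edgeR called 0.418% of all genes, DESeq2 called none of the 9, and Gngt1 and Pde6b had an unadjusted p under 0.05, as 15% of all genes did. Gngt1 stood at 2638, 3303 and 3224 CPM in the controls, all of the first run. With SCFA it stood at 3928 and 4897 CPM in the first run and 2182 and 1790 CPM in the second, again above the controls in the first run and below them in the second. The log2 difference was 0.55 ± 0.24 (SE), with edgeR's adjusted p = 0.268. Pde6b gave −0.35 ± 0.15 (SE) with an adjusted p of 0.273. Sag stood at 9412, 10132 and 9033 CPM in the controls and at 7669, 7404, 8421 and 7893 CPM with SCFA. The values of 8421 and 7893 CPM are of the second run, which held no control of that sex and day. Sag was thus lower in every SCFA library, as 9.53% of all genes were separated in 1 direction or the other, and the fit gave −0.20 ± 0.17 (SE) with an adjusted p of 0.622.

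At 7 dpl in females edgeR called 0.941% of all genes and none of the 9, DESeq2 called none of the 9, and of the 9 Gngt1 alone had an unadjusted p under 0.05, as 17.1% of all genes did. Gngt1 stood at 3005, 2566 and 3191 CPM in the controls and at 5437, 3193, 2647 and 2235 CPM with SCFA, the last in the second run. The groups overlapped, and the log2 difference was 0.49 ± 0.23 (SE), with edgeR's adjusted p = 0.274. No member separated the groups there, where 7.11% of all genes did. At 14 dpl in females edgeR called none of the 18173 genes, 579 (3.19%) had an unadjusted p under 0.05 and DESeq2 called 1. Gngt1 stood at 4700, 1039 and 1657 CPM in the controls, the last 2 in the second run, and at 4523, 2553, 2335 and 1610 CPM with SCFA, the last in the second run. A single first-run control was the highest of that day, and the log2 difference was −0.14 ± 0.23 (SE). No member had an unadjusted p under 0.05 or separated the groups, where 3.98% of all genes did.

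Averaged over the 3 days, 3 of the 9 genes were called in males, against 32.3% of all genes, which is a like share. They were Gngt1 (0.70 ± 0.14, SE), Pde6a (0.29 ± 0.10, SE) and Gnat1 (0.22 ± 0.09, SE), with edgeR's adjusted p of 0.000332, 0.0236 and 0.0718. With the GC trend removed Gngt1 gave 0.28 with an adjusted p of 0.123, and its call was lost. The call of Gnat1 was lost without SCFA replicate 3 at 14 dpl, SCFA replicate 1 at 3 dpl, control replicate 3 at 14 dpl or control replicates 2 or 3 at 7 dpl, each alone, at 0.20 to 0.21. In females none was called, against 3.84% of all genes, DESeq2 called none of the 9, and Gngt1 was among the 17.2% of genes with an unadjusted p under 0.05 (0.30 ± 0.13, SE, adjusted p = 0.24). The difference between the sexes was then tested itself. Over the mean of days the response of Gngt1 was 0.40 ± 0.19 (SE) higher in males than in females, with edgeR's adjusted p = 0.734, and no gene of the table was called (0%, with 1206 genes or 6.64% at an unadjusted p under 0.05, and 4 called by DESeq2). At 14 dpl it was 0.85 ± 0.33 (SE) higher, with an adjusted p of 0.413, 0 genes called (0%), 2034 genes or 11.2% at an unadjusted p under 0.05 and 0 called by DESeq2. At 3 dpl no gene was called (0%, with 1496 or 8.23% at an unadjusted p under 0.05, and 3 called by DESeq2), with Pde6b at 0.49 and Sag at 0.47 as the members with an unadjusted p under 0.05. At 7 dpl 0.0165% of genes were called, none of them a member, no member was among the 8.12% with an unadjusted p under 0.05, and DESeq2 called none of the 9. A different response of the sexes was therefore not shown for any of the 9 genes.

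The days did not separate the genes. Between 3, 7 and 14 dpl edgeR called none of the 9 in controls or with SCFA, none had an unadjusted p under 0.05, and DESeq2 called none of them. The background was 0% for 7 against 3 dpl and for 14 against 7 dpl in controls and 0.116% for 14 against 3 dpl. With SCFA it was 0%, 0.319% and 0.743% for the same contrasts. The shares of all genes with an unadjusted p under 0.05 were 7.11%, 9.9% and 4.44% in controls and 5.26%, 14.8% and 15.6% with SCFA. The largest day difference of a member was that of Gngt1 with SCFA from 3 to 14 dpl, −0.29 ± 0.17 (SE) on the log2 scale with a 95% interval of −0.63 to 0.06. Males and females were compared in the same way. In controls edgeR called none of the 9 and 1.14% of all genes, but Gngt1 was −0.47 ± 0.14 (SE) in males relative to females with an adjusted p of 0.11, and Gnat1 was −0.20 ± 0.09 (SE) with an adjusted p of 0.309, both among the 14% of genes with an unadjusted p under 0.05. DESeq2 called Gngt1 there. With SCFA edgeR called 0.088% of all genes and none of the 9, none was among the 7.98% with an unadjusted p under 0.05, and DESeq2 called none of the 9.

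Between the runs of columns the transducin gamma subunit moved furthest of the 9. Gngt1 was −1.19 ± 0.12 (SE) on the log2 scale in the second run relative to the first, with edgeR's adjusted p = 5.24e-09. Gnb1 (0.29), Pde6a (0.34), Pde6b (0.25) and Cngb1 (0.14) were higher in the second run and Pde6g (−0.26) was lower, with adjusted p from 0.00161 to 0.0717. Gnat1 (−0.09), Cnga1 (0.14) and Sag (−0.16) did not pass. So 6 of the 9 were called, beside 53.3% of all genes, a share not far from it. The runs hold different shares of controls and SCFA libraries, from 3 and 0 to 1 and 2 libraries of a group.

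**Figure D4:**
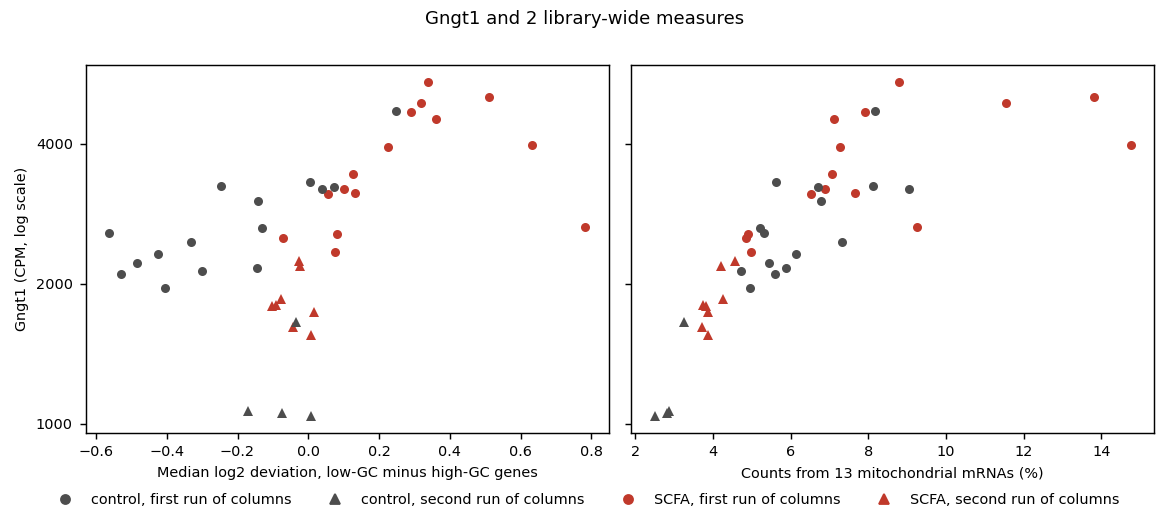
Gngt1 in CPM on a log scale (y axis) in the 42 libraries, against the difference of low-GC and high-GC genes on the log2 scale (left) and the percent of counts from mitochondrial messenger RNAs (right), with colour for the drink and circles and triangles for the first and second run of columns. The second-run libraries all lie at or under 2235 CPM, and Gngt1 is higher where the mitochondrial percent is higher.

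Properties of the libraries moved with Gngt1. Its coding transcript of 1183 bases is the second shortest of the 9, after Pde6g at 900 bases, and its GC content of 35.8% is the lowest, the others having 42.6% to 55.8%. Over 42 libraries the deviations of Gngt1 followed the mitochondrial share (r = 0.69, rho = 0.77, adjusted permutation p = 0.000135, r = 0.74 without the 2 farthest libraries). They also followed the median log2 deviation of 505 genes with transcripts of up to 1000 bases less that of 2584 genes with 5000 bases or more (r = 0.70, rho = 0.67, adjusted permutation p = 0.000135, r = 0.62 without the 2 farthest). With the difference of genes of low and high GC content r was 0.17 (rho = 0.29, adjusted permutation p = 0.361, r = 0.39 without the 2 farthest). Of the other 8 genes 6 fell as that difference rose, with an adjusted permutation p from 0.00036 to 0.0201, namely Pde6g (r = −0.60), Pde6b (−0.54), Sag (−0.54), Cnga1 (−0.49), Cngb1 (−0.43) and Gnat1 (−0.39). Without the 2 farthest libraries these lay between −0.57 and −0.21. The 27 relations of the 9 genes with the 3 measures were adjusted together, and their permutation p-values are too small for the same reason as those of the pairs. With the mitochondrial share the other 8 genes had r from −0.56 (Gnb1) to −0.04 (Sag). Gnb1, Pde6a, Cngb1, Pde6b, Gnat1 and Cnga1 fell as it rose, with an adjusted permutation p from 0.00036 to 0.032. Without the 2 farthest libraries their r lay between −0.42 and −0.17. Pde6g and Sag did not pass, with an adjusted permutation p of 0.0899 and 0.887. With the short-transcript measure Sag (r = 0.67) and Pde6g (r = 0.60) rose like Gngt1 and Pde6a fell (r = −0.54), all 3 with an adjusted permutation p from 0.000135 to 0.000729.

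Low-GC genes as a class were higher with SCFA. Over all days and both sexes the median log2 difference was 0.23 for 538 genes of up to 40% GC, of which 399 were called higher and 12 lower, and −0.14 for 2592 genes of over 55% GC, of which 87 were called higher and 1369 lower. Gngt1 lies in the first of these classes, and its value of 0.50 lay above that median. With a smooth trend in GC content taken out of every library, the value of Gngt1 was 0.19 ± 0.09 (SE) with edgeR's adjusted p = 0.133, and in males at 7 dpl it was 0.29 with an adjusted p of 0.417. With a trend in transcript length taken out instead, it was 0.49 with an adjusted p of 1.97e-05 over all groups. Under the GC trend Pde6a (0.19, adjusted p = 0.0249) was still called, Cnga1 gave −0.26 (adjusted p = 0.00388) and Gnat1 passed with 0.20 (adjusted p = 0.0121), so 3 of the 9 were called beside 27.3% of all genes. The fits with a trend removed and the fit without the 3 libraries of high mitochondrial share were chosen after the data had been seen, and the part of base composition, transcript length and the mitochondrial share in the differences was not tested.

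**Figure D5:**
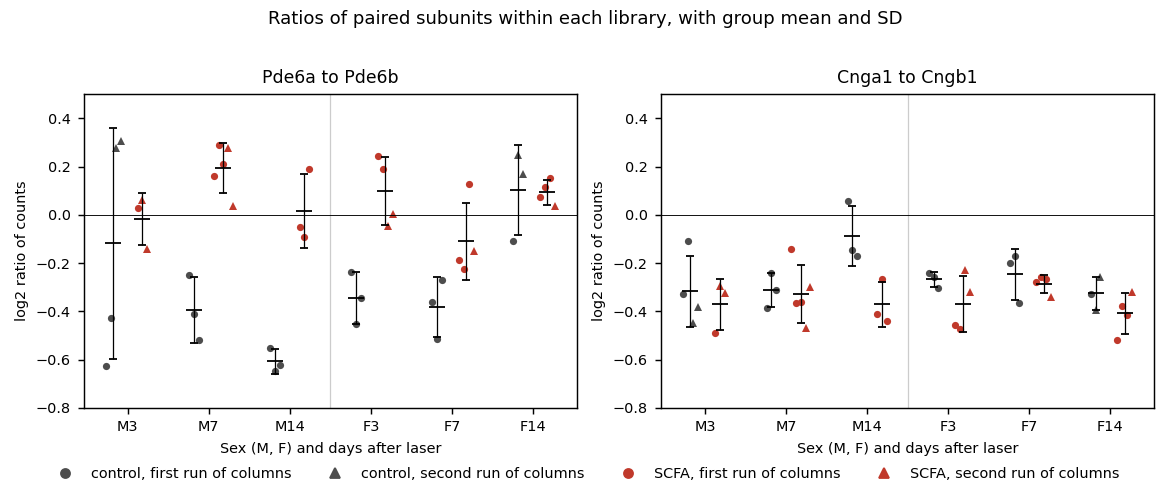
Log2 ratio of counts within each library (y axis) by sex and day (x axis), for Pde6a to Pde6b (left) and Cnga1 to Cngb1 (right), with colour for the drink, circles and triangles for the first and second run of columns, and bars for the mean ± SD of a group. In the first run the left ratio has a median of −0.43 in controls and 0.13 with SCFA, and in the second run 0.26 and 0.02.

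Ratios of 2 subunits within a library do not depend on its depth, and they are given without a test. The count ratio of Pde6a to Pde6b, whose products pair in the enzyme, was 0.638 to 0.928 in 15 first-run controls (median 0.744) and 0.856 to 1.22 in 15 first-run SCFA libraries (median 1.09). In the second run it was 1.12 to 1.24 in 4 controls (median 1.20) and 0.902 to 1.21 in 8 SCFA libraries (median 1.01). The order of the drinks was thus opposite in the 2 runs. At 14 dpl in males, where all libraries were of the first run, the ratio was 0.638 to 0.683 in controls and 0.937 to 1.14 with SCFA. The ratio of Cnga1 to Cngb1 was steadier, with medians of 0.846 and 0.769 in controls and SCFA libraries of the first run and 0.765 and 0.801 in those of the second. The ratio of Gngt1 to Gnat1 had medians of 0.135 and 0.162 in the first run and 0.0718 and 0.0959 in the second, lower in controls than with SCFA in both. Since the ratio of Pde6a to Pde6b differs with the run, the values of the runs are to be read apart.

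Other genes of photoreceptors gave a background for these values, over all days and both sexes. In that comparison edgeR called 36.7% of all genes tested, the share to set beside the counts of each list. Of 8 cone counterparts of the 9 genes, 2 were lower with SCFA and none higher, with a median of 0.01. They were Cnga3, the cone channel alpha subunit (−0.24, edgeR's adjusted p = 0.0125), and Gnb3, the cone transducin beta subunit (−0.21, adjusted p = 0.0222), and the next was Cngb3 (0.10, adjusted p = 0.175). Of 11 genes that end or reset the rod response, 1 was higher and 1 lower, with a median of −0.07. Rgs9, which speeds the shut-off of transducin, gave −0.31 (adjusted p = 0.046), Pdc, which binds the transducin beta and gamma subunits, gave 0.16 (adjusted p = 0.0782), and Gnb5, the partner of Rgs9, gave −0.12 (adjusted p = 0.181). Of 4 rod transcription factors none was called by edgeR, Nr2e3, Otx2 and Nrl having adjusted p of 0.335, 0.502 and 0.538. Of 6 genes of outer segment structure, Rp1 (0.26, adjusted p = 0.00366) was higher and Fscn2 (−0.19, adjusted p = 0.0467) and Cdhr1 (−0.20, adjusted p = 0.073) lower.

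Markers of other cells were read beside the members, in the same comparison, where edgeR called 36.7% of all genes tested. The sums given here come from a scaling of all 43 libraries together and so differ a little from the levels above, which scale 42. The summed level of the 9 genes was 34954 to 53135 CPM in controls and 30835 to 53671 CPM with SCFA, far above that of any other cell's list. Of 7 bipolar cell markers 2 were higher (Isl1 0.25, Cabp5 0.32) and Pcp2 was at 0.15 (adjusted p = 0.13), with sums of 659 to 1199 CPM in controls and 758 to 1029 CPM with SCFA. Of 6 ganglion cell markers 4 were lower (Nefm −0.44, Thy1 −0.25 and Sncg −0.24 among them), with sums of 765 to 1426 CPM and 683 to 1099 CPM. Of 6 Müller glia markers 2 were higher (Glul 0.23, Aqp4 0.22) and 1 lower (Dkk3 −0.19), with sums of 4524 to 7278 CPM and 4248 to 9485 CPM. Of 8 microglia markers 3 were lower (C1qa −0.54, Csf1r −0.34, Trem2 −0.40), with sums of 48.7 to 102 CPM and 35.8 to 85.0 CPM. Of 6 pigment epithelium markers 1 was lower (Pmel −0.66), with Rgr and Tyrp1 at −0.19 each, and sums of 65.2 to 663 CPM and 78.5 to 750 CPM. None of 8 lens markers was called (Crygd 1.43, Lim2 0.84, Cryba2 0.91, adjusted p from 0.109), with sums of 0.227 to 395 CPM and 2.82 to 666 CPM and up to 5 markers at 0 in a control library. None of 5 oligodendrocyte markers was called (Mobp 1.13, Mag −0.49, Mog −0.11), with sums of 15.6 to 681 CPM and 16.5 to 469 CPM. Of 13 mitochondrial messenger RNAs 12 were higher (median 0.50), led by mt-Nd4 (0.67), mt-Nd6 (0.54) and mt-Cytb (0.50). The part of these cells and of the mitochondrial share in the levels of the 9 genes was not tested.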

How the data were processed

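RNA was extracted from pooled retinas and sequenced by the authors, and the deposited file holds whole-number read counts per gene that were not normalized. Per the submitters' processing notes reads were placed on mm10 and DESeq2 was used by the authors, and the aligner is not given in the sources used here. The counts were tested with edgeR 4.0.16 (quasi-likelihood F test, TMM scaling, filterByExpr) in R 4.3.3, in a single fit of 42 libraries with the 12 groups and the run of columns as terms. Of 54532 genes 18173 were tested, p-values were adjusted by Benjamini-Hochberg over all of them, and an adjusted p under 0.1 was a call. CPM values use TMM library sizes. DESeq2 1.42.0 was an alternative. The 42 libraries held no identical pair, and the highest correlation between 2 of them was 0.995. Replicate numbers did not pair the libraries, since same-numbered libraries of SCFA and control groups correlated above 0.1 in 6 of 17 pairs (−0.41 to 0.55), so no pairing was used.

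The members and the gene lists were chosen with earlier results of these data known. Named genes were all 9 members, the 3 genes of each other list with the smallest adjusted p over all days and both sexes, and the 5 genes whose deviations were most like the mean of the members. The 5 genes most like Gngt1 were added after their values were seen. Some marker genes of the lists are not reported here. Symbols were matched for 54409 of 54532 gene IDs, and transcript length and GC content came from GENCODE M21 (54495 of 54532 IDs). Permutation tests of correlations used 100000 resamples and were two-sided. They ignore the degrees of freedom that the group and run means take up, so their p-values are too small. Alternatives were DESeq2, another filter, fits without the run or by run, the libraries of the study, only the libraries compared, each library left out, and, chosen after the data were seen, removal of trends in length or GC content and of 3 libraries of high mitochondrial share. The statistics were tested on simulated data that held no effect of run, GC content or transcript length. That test therefore does not bear on the adjustment for these. Counting was not stated to use strand, so reads of overlapping genes cannot be told apart.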

Additional observations from a re-analysis of the deposited data

Results flagged for a closer look

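In female SCFA mice at 7 dpl, 3 values of members lay farther from the other 3 libraries of their group than Dixon's 95% limit allows. Gnb1 stood at 4386 CPM in replicate 1, where the others had 5388 to 5590 CPM. Pde6b stood at 2339 CPM in the same replicate, where the others had 2864 to 2895 CPM. Pde6g stood at 3803 CPM in replicate 2, where the others had 3302 to 3355 CPM. The limit was applied to 70 groups of values, and chance alone passes it in about 1 of 20.

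The female SCFA 3 dpl replicate 2 library, which entered no comparison, held 242233 CPM of summed lens markers, against at most 666 CPM in the other libraries. The CPM values of this comparison scale all 43 libraries together, unlike those of the report, which scale 42. Its members were at 15142 CPM for Gnat1 and 5999 CPM for Sag, below the 18212 CPM and 7486 CPM of the lowest other library of its group, while Gngt1 at 3381 CPM lay within that group's range of 1780 to 4951 CPM.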

How the results depend on the processing

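The 3 calls of members at each day in each sex became 5 with no filter on low counts, 5 with the trend in transcript length removed, 5 with the libraries the study used at 7 and 14 dpl and no run term, 0 with no run term in all libraries, 1 at an adjusted p under 0.05 and 0 at an absolute log2 fold change over 1, and they were 1 to 5 with each library left out in turn. Shares of all genes called are not given for most of these fits, so the member counts cannot be set against a background here. The 3 calls over all days and both sexes became 1 with no run term, 5 in the first run alone, 5 without the 3 libraries of high mitochondrial share and 0 at an absolute log2 fold change over 1. In the first run alone 30.1% of all genes were called, and 0.677% were called with a change over 1. Where no member was called between males and females, 1 was called by DESeq2, 1 with no filter, 1 with the length trend removed, 2 in the fit of only the libraries compared, 2 without the 3 libraries and 0 to 1 with each library left out. Those of the named fits were in controls. Beside them stood 728 of 18173 genes with DESeq2, 701 of 35501 with no filter and 496 of 18173 with the length trend removed. The last 2 of these fits called 482 of 17407 and 427 of 18070 genes. For the sex difference of the response 1 was called with no filter, Gngt1 at 14 dpl, beside 416 of 35501 genes. The cause of these changes was not tested.

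Pde6g over all days and both sexes turned to −0.0062 with no run term and to −0.091 in the first run alone. Cngb1 turned to 0.037 with the GC trend removed and to 0.029 without the 3 libraries, and with each library left out it lay between −0.044 and 0.010, above 0 only without male SCFA 7 dpl replicate 3. Pde6b in males at 7 dpl turned to 0.0018 with the study's libraries and no run term. Neither Pde6g nor Cngb1 was past the threshold there, and Pde6b, called at −0.34 in the report, had an adjusted p of 0.996. With the same libraries and the run term edgeR put Gngt1 of the males of that day at 0.75 (adjusted p = 0.137), and without that term 0.01 (adjusted p = 0.984).

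The genes called among all tested moved too. Over all days and both sexes 4586 to 7157 were called, beside 6661. In males at 7 dpl the count of 4332 became 479 with the study's libraries and the run term, 611 without the 3 libraries, 1507 with only the libraries compared and 2338 with no run term, and in males at 14 dpl the count of 1760 became 282 with no run term and 3952 with only the libraries compared. With each library left out in turn these counts were 2439 to 5089 and 0 to 2623, the values of 0 to 25 coming from 4 libraries of that day. Pde6b over all days was called in the first run alone (−0.22, adjusted p = 0.0435), and Pde6a was called over all days in each of the 13 alternatives (0.19 to 0.26). The replicate number as a replicate block gave 4 member calls over all days and 4 at each day in each sex, with Gngt1 at 0.46 (adjusted p = 0.000441), and changed no call of a member called without it. The share of all genes called in that fit is not given, so its member counts cannot be set against a background. The libraries' own spread, and not the depth of over 9097 counts for each member, limits these values.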
